A study of Mus musculus with 33 samples.

Results

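The comparison set uterine tissue taken 4 days after fertilization (4 arrays) against uterus of mice that were not pregnant (6 arrays). Members were taken by the column names of the authors' non-normalized intensity table, and they are 10 of the 33 single-colour Illumina bead arrays of the series, the other 23 being later days of pregnancy. All mice were of the inbred strain C57BL/6 and 8 weeks old per the labels, which give no treatment, no stage of the oestrous cycle for the non-pregnant mice and no statement that arrays hold separate animals, so a p-value measures only the spread between these samples, which may be technical. Sample titles name the day 4 tissue uterine microenvironment and the non-pregnant tissue uterus. Any difference in dissection between the groups could not be told apart from pregnancy. Each array measured biotin-labelled cRNA made from total RNA of uterine tissue, so that fewer cells of a type and less RNA per cell cannot be told apart.

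By way of background, the mouse uterus becomes receptive to the blastocyst under rising progesterone and a short rise of oestrogen. Oestrogen drives growth and secretion of the luminal and glandular epithelium, progesterone acting through its receptor halts epithelial growth and prepares the stroma, and the stroma then turns into decidua around the attached embryo. Collagen and other matrix proteins are made in the endoplasmic reticulum of stromal cells, where prolyl hydroxylases, isomerases and chaperones modify and fold the chains before they are secreted.

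Values of single genes are log2 intensities after background correction and quantile normalization. They are given for day 4 replicates 1, 2, 3 and 4 in that order and, for non-pregnant uterus, as the lowest, the median and the highest of the 6 arrays. A difference is day 4 minus non-pregnant in log2 units with its standard error (SE) and limma's adjusted p over 10412 genes, from a fit in which all 33 arrays share the estimate of spread. A gene passed when its adjusted p was under 0.05, and changed when the difference was also at least 2-fold. Of the 10412 genes, 934 passed (8.97%), of which 463 were higher (4.45%) and 471 lower (4.52%), and 276 changed (2.65%), 148 of them higher and 128 lower. Under median scaling 147 of 176 changed genes were higher, and the median of all genes moved to 0.15, so that directions are relative to such a shift. Of the 276, 70 (0.672% of all genes) changed with no overlap between the 4 day 4 arrays and the 6 non-pregnant arrays. The median difference of all genes was 0.01, and 51.2% of them lay above 0. At an unadjusted p under 0.05 there were 2368 of the 10412 genes.

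How many genes passed depended on which arrays entered the fit and on how their spread was shared. When only the 10 arrays were fitted, 8 genes changed (0.0768%), with 1524 genes at an unadjusted p under 0.05. That fit has 8 residual degrees of freedom, against 26 with all arrays. With all 33 arrays but 1 variance per group, 479 genes passed (4.6%) and 227 changed, 226 of them among the 276. The median SD of a gene was 0.24 among the day 4 arrays and 0.36 among the non-pregnant arrays, against 0.17 to 0.18 at days 8, 10 and 11. Arrays detected 16533 to 17811 probes at day 4 and 13097 to 18152 in non-pregnant uterus, where replicate 4 was the dimmest. Day 4 replicate 1 correlated at 0.967 with non-pregnant replicate 6, above its 0.957, 0.957 and 0.908 with day 4 replicates 2, 3 and 4. The first principal component of the 10 arrays (36.3% of the variance) did not separate the groups. It ran from -41.8 to 40.4 at day 4 and from -43.5 to 55.1 in non-pregnant uterus. The third component (15.4%) ran from 1.08 to 24.8 at day 4 and from -41.7 to 2.88 in non-pregnant uterus. On it only day 4 replicate 1 lay within the non-pregnant range. Day 4 replicates 2 and 3 correlated at 0.995, as did non-pregnant replicates 2 and 3 at 0.994, both above every other pair within the groups. With each of these pairs averaged to 1 sample 173 genes changed, and without non-pregnant replicate 4 the count was 422. The genes that passed were 206 under median scaling (1.98% of all) and 10 with the 10 arrays alone (0.096%). With those pairs averaged they were 422 (4.05%). With 1 array left out, the share that passed was 10%, 4.64%, 4.74% and 6.43% without day 4 replicates 1, 2, 3 and 4 in turn. It was 6.06%, 7.88%, 8.05%, 14.9%, 6.77% and 11.2% without non-pregnant replicates 1 to 6 in turn. Counts of list members under these settings are to be read against those shares. Of 36 named genes that passed and had other probes, 21 also passed by every other probe in the same direction, and 2 (Nf1 and C2cd4a) had an opposite probe. The uterine genes Esr1 and Wnt7a, the smooth muscle genes Acta2 and Myh11, the stromal genes Dcn and Lum and the epithelial keratins Krt8 and Krt18 were detected on all 10 arrays, whereas Hoxa10 and Hoxa11 were detected on 3 arrays of each group.

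Genes of collagen chains and of collagen folding gave the largest counts of rises among the described gene groups, whose lists differ in size. By share, cholesterol synthesis was similar, with 6 of 13 measured members higher. Of 18 measured collagen chains 8 rose and none fell, with a median difference of 0.70, and of 20 genes of collagen folding and processing 10 rose and none fell, with a median of 0.62, against 4.45% of all genes higher. Fkbp14, an endoplasmic reticulum prolyl isomerase that acts on collagen, had 8.45, 8.57, 8.18 and 8.47 on the day 4 arrays, against 5.08, 6.79 and 7.32 on the non-pregnant arrays. Every day 4 array lay above every non-pregnant array, and the difference was 2.08 (SE 0.33, adjusted p = 0.000156). Crtap, a subunit of the prolyl 3-hydroxylation complex, read 11.04, 10.54, 10.63 and 10.15 at day 4 and 8.50, 9.46 and 10.27 without pregnancy. Only non-pregnant replicate 6 reached the day 4 range, and Crtap was higher by 1.25 (SE 0.24, adjusted p = 0.00103). Its partner in that complex, the hydroxylase P3h1, was higher by 0.84 (SE 0.16, adjusted p = 0.00094), and Serpinh1, the collagen chaperone HSP47, by 0.96 (SE 0.17, adjusted p = 0.00044). The disulfide isomerase P4hb, which is also the beta subunit of prolyl 4-hydroxylase, was higher by 0.45 (SE 0.09, adjusted p = 0.00189), and its levels of 13.60, 13.79, 13.68 and 13.79 at day 4 stood against 13.11, 13.29 and 13.38 in non-pregnant uterus. The 10 members that did not pass included Ppib, a prolyl isomerase, with a difference of 0.13 (adjusted p = 0.785), and the lysyl hydroxylase Plod1, with 0.23 (adjusted p = 0.558).

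Among the chains, Col5a1, a fibrillar chain that nucleates collagen fibrils, gave 12.72, 12.72, 12.96 and 13.08 at day 4, against 10.90, 11.23 and 12.60 in non-pregnant uterus. The groups did not overlap, and the difference was 1.41 (SE 0.23, adjusted p = 0.00021). Col1a1, the main chain of type I collagen, had 12.72, 12.80, 12.87 and 12.67 at day 4 and 10.80, 11.24 and 12.20 without pregnancy, again with no overlap, and was higher by 1.31 (SE 0.26, adjusted p = 0.00155). The basement membrane chain Col4a1 was higher by 0.68 (SE 0.14, adjusted p = 0.00155) with overlapping groups. Col15a1, a chain of the zone beneath basement membranes, averaged 11.12 ± 0.55 on the day 4 arrays and 9.63 ± 1.19 on the non-pregnant arrays (SD, n = 4 and 6; adjusted p = 0.0114 from limma), also with overlapping groups. Col7a1, which anchors squamous epithelia, showed no such difference, at -0.04 (adjusted p = 0.953). Non-pregnant replicates 4 and 6 were the highest of their group for Col1a1, Col4a1, Col5a1 and Col15a1. The count of 8 chains became 11 without non-pregnant replicate 4 (14.9% of all genes passed) or without replicate 6 of that group (11.2%). It was 5 without day 4 replicate 3 (4.74%), 3 with the near-identical pairs averaged and 0 with the 10 arrays alone. The count of 10 folding genes became 4 under median scaling and 0 with the 10 arrays alone. The median of the folding genes was 0.82 under median scaling and 0.62 with the 10 arrays alone. In the fit of the 10 arrays alone the adjusted p was 0.0881 for Fkbp14, 0.0881 for Col5a1 and 0.115 for Serpinh1. At an unadjusted p under 0.05 that fit held 9 of the 18 chains and 14 of the 20 folding genes, against 1524 of all 10412 genes.

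**Figure D1:**
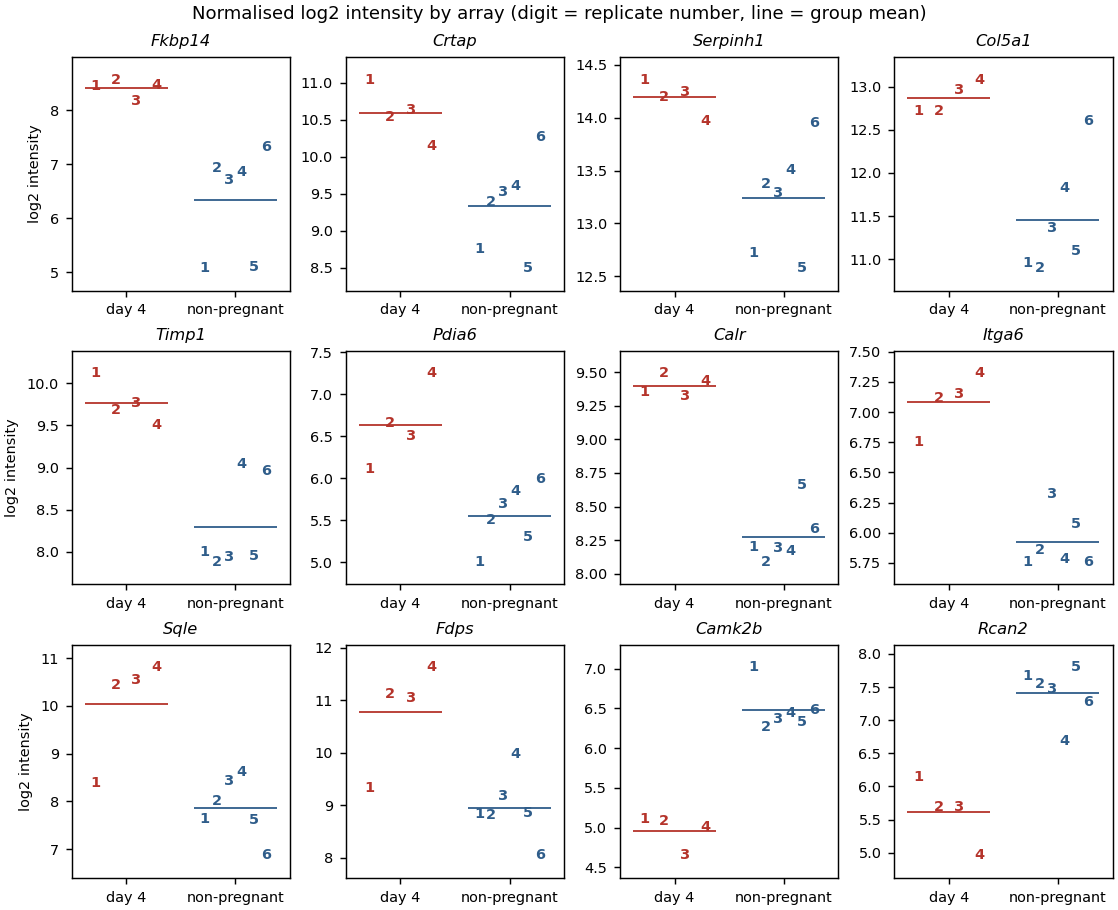
Normalised log2 intensity of 12 genes on the 4 day 4 arrays and the 6 non-pregnant arrays; each digit is the replicate number of an array and each line a group mean. Fkbp14, Serpinh1, Col5a1, Timp1, Pdia6, Calr, Itga6, Camk2b and Rcan2 show no overlap between the groups, whereas day 4 replicate 1 lies within the non-pregnant range for Sqle and Fdps, and non-pregnant replicate 6 within the day 4 range for Crtap.

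Of 12 elastic fibre genes 3 rose and none fell, with a median of 0.24, and this count held when any 1 array was left out. Eln, elastin itself, read 8.63, 9.59, 9.66 and 10.05 at day 4 against 6.65, 7.61 and 9.52 in non-pregnant uterus, and was higher by 1.74 (SE 0.35, adjusted p = 0.00164). The highest non-pregnant value, on replicate 4, lay within the day 4 range. Fbln2, a fibulin that binds elastin and basement membranes, was at 10.26, 12.47, 12.38 and 12.48, against 10.47, 10.77 and 10.85: the last 3 day 4 arrays lay above every non-pregnant array, while replicate 1 lay below all 6 of them. Its difference was 1.21 (SE 0.25, adjusted p = 0.00216), and Loxl1, a lysyl oxidase that cross-links elastin, was higher by 0.67 (SE 0.18, adjusted p = 0.0147).

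Among 10 proteoglycan and hyaluronan genes, Has2, a hyaluronan synthase, rose by 1.71 (SE 0.34, adjusted p = 0.00163). It was detected on all 4 day 4 arrays, at 7.39, 7.14, 6.82 and 5.71, and on 1 non-pregnant array, replicate 6, at 7.18. The other 5 non-pregnant arrays read 4.36 to 4.83. Prelp, a small leucine-rich proteoglycan that anchors basement membranes, fell by 0.97 (SE 0.20, adjusted p = 0.00171), with 11.31, 10.72, 10.94 and 10.44 at day 4 and 11.17, 11.87 and 12.32 in non-pregnant uterus. Vcan, a large proteoglycan that binds hyaluronan, was higher by 1.18 (SE 0.38, adjusted p = 0.0455), but did not pass without day 4 replicate 1, 2 or 3 or non-pregnant replicate 1, 2, 3 or 5 (differences between 1.06 and 1.17). Its 3 other probes gave 0.43 to 0.52 and did not pass.

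Enzymes that cut the matrix moved both ways: of 14 genes of matrix proteases and their inhibitors 4 rose and 3 fell, with a median of -0.53. Timp1, a secreted inhibitor of metalloproteinases, was at 10.12, 9.69, 9.77 and 9.50 on the day 4 arrays and at 7.88, 7.97 and 9.04 on the non-pregnant arrays. All 4 day 4 values exceeded all 6 non-pregnant values, by a difference of 1.47 (SE 0.18, adjusted p = 1.12e-05), and the gene's other probe gave 1.71. Adamts1, a protease of versican and aggrecan, rose by 1.56 (SE 0.32, adjusted p = 0.00206), but its 2 other probes gave 0.40 (adjusted p = 0.343) and 0.33 (adjusted p = 0.484). In contrast Mmp9, a gelatinase, fell by 1.39 (SE 0.31, adjusted p = 0.00432), with 6.04, 6.67, 6.44 and 6.08 at day 4 against 5.98, 8.12 and 8.45, where the dim non-pregnant replicate 4 held the lowest value. Mmp10, a stromelysin, was detected on no day 4 array and on 4 of 6 non-pregnant arrays and was lower at day 4 by at least 1.44-fold (adjusted p = 0.0144). It did not pass without day 4 replicate 2 (difference -0.97). Without non-pregnant replicate 4, 8 members of the list fell, under median scaling none did, and 2 rose without day 4 replicate 2, 3 or 4.

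Genes of protein folding in the endoplasmic reticulum, many of which are targets of the unfolded protein response, formed a second group of rises. Of 17 measured members 6 rose and 1 fell, with a median of 0.48. The rises were in disulfide isomerases, chaperone cofactors and the response factor Xbp1, whereas Ddit3, the CHOP factor of prolonged stress signalling, fell. Because several promoters of this group carry the endoplasmic reticulum stress element, a paired motif bound by ATF6 with NF-Y, the upstream sequences of 4 members are given. They are the 250 bases before the annotated start in RefSeq for GRCm38.p6, 5′ to 3′ on the gene's strand, with the motif in capitals (CCAAT and CCACG separated by 9 bases, or the reverse complement ATTGG and CGTGG in opposite order). On that build they span chr12:17266339-17266588, plus strand, for Pdia6, chr14:118937682-118937931, plus strand, for Dnajc3, chr15:88819396-88819645, plus strand, for Creld2, and chr8:84846932-84847181, minus strand, for Calr.
Pdia6: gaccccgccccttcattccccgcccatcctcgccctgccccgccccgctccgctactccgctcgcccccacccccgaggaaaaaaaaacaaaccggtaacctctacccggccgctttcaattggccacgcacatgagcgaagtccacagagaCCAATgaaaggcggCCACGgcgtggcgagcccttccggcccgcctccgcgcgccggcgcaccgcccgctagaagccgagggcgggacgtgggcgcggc
Dnajc3: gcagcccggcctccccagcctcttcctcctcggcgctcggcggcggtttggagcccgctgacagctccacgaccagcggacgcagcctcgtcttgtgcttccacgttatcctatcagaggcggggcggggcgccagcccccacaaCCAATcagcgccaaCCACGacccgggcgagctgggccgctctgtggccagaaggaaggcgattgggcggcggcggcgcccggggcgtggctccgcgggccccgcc
Creld2: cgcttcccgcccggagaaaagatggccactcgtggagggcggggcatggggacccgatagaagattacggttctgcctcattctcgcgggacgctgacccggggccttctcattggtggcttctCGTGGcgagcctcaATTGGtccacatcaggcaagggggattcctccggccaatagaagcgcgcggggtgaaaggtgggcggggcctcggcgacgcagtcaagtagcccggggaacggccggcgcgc
Calr: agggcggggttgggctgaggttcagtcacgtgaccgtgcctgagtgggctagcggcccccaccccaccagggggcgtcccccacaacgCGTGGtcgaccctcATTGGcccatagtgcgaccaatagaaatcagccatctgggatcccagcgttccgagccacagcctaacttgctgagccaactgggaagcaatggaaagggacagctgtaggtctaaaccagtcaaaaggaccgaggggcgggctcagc
The motif lay 80 to 98 bases before the start of Pdia6, 87 to 105 before Dnajc3, 108 to 126 before Creld2 and 144 to 162 before Calr. It was searched on both strands and occurred in the promoters of 6 of 16 listed genes with an entry (37.5%), 3 of the 6 that rose, and 15 of 8399 tested genes with an entry (0.179%). The other carriers in the list, Hspa5 with 1 match and Hsp90b1 with 2, are not printed. Carriers thus include members that did not pass in the fit of all arrays, among them Calr (adjusted p = 0.0778 from limma). The list was chosen to hold genes of this response, so its share of carriers partly reflects that choice and is no result of these arrays. A match describes these letters only and shows neither binding nor a cause.

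Pdia6, a disulfide isomerase, read 6.11, 6.66, 6.51 and 7.25 at day 4, against 5.01, 5.60 and 5.99 in non-pregnant uterus. The lowest day 4 value, on replicate 1, exceeded the highest non-pregnant value, and the difference was 1.08 (SE 0.20, adjusted p = 0.000993). The other probe of Pdia6 gave 0.45 (adjusted p = 0.0704). Calr, calreticulin, a calcium-binding chaperone of glycoproteins, was at 9.35, 9.49, 9.32 and 9.43 on the day 4 arrays and at 8.09, 8.20 and 8.66 on the non-pregnant arrays. The day 4 values lay close together and above all non-pregnant values, by a difference of 1.12 (SE 0.40, adjusted p = 0.0778) in the fit of all arrays, where the spread of later days is included, and with an adjusted p of 0.0277 in the fit of the 10 arrays alone. Xbp1 was higher by 0.54 (SE 0.11, adjusted p = 0.00211), and Dnajc3, a co-chaperone of BiP, by 0.70 (SE 0.17, adjusted p = 0.0104), which did not pass without day 4 replicate 4 (difference 0.60). BiP itself, the gene Hspa5, was not called, with a difference of 0.86 (adjusted p = 0.198) and detection on 3 of 4 day 4 arrays and 2 of 6 non-pregnant arrays. Ddit3 was at 7.43, 7.15, 7.20 and 6.86 at day 4, below all non-pregnant arrays at 7.54, 8.29 and 8.75, with a difference of -1.00 (SE 0.17, adjusted p = 0.000412). Fkbp11, a prolyl isomerase of secretory cells that the list does not hold, rose by 1.35 (SE 0.25, adjusted p = 0.000853) with no overlap between the groups. The count of 6 rises was 2 without day 4 replicate 4, 3 without day 4 replicate 2, day 4 replicate 3 or non-pregnant replicate 1, 2 with the near-identical pairs averaged and 1 under median scaling, while the list's median stayed between 0.32 and 0.68 under the other scalings.

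Cholesterol synthesis gave the highest median of the lists described, 0.87, with 6 of 13 measured members higher and none lower. Sqle, the squalene epoxidase that starts sterol synthesis proper, had 8.39, 10.44, 10.53 and 10.81 on the day 4 arrays, against 6.87, 7.82 and 8.61 on the non-pregnant arrays. Day 4 replicates 2, 3 and 4 lay above every non-pregnant array, whereas replicate 1 lay within their range, and the difference was 2.19 (SE 0.31, adjusted p = 4.67e-05). Fdps, which makes farnesyl diphosphate, was at 9.33, 11.11, 11.05 and 11.63 at day 4 and at 8.05, 8.84 and 9.98 in non-pregnant uterus, and was higher by 1.83 (SE 0.29, adjusted p = 0.000156) with the same replicate low. The sterol demethylase Cyp51 rose by 1.77 (SE 0.35, adjusted p = 0.00155), the sterol oxidase Msmo1 by 1.76 (SE 0.39, adjusted p = 0.00395) and Lss, which closes the lanosterol rings, by 1.30 (SE 0.23, adjusted p = 0.000457). Each of these 5 genes kept its call when any 1 array was left out. The sixth was Stard4, a carrier of cholesterol between membranes, higher by 0.87 (SE 0.26, adjusted p = 0.0355). In contrast Insig1, the sterol-dependent retention protein, and Srebf2, the main sterol-responsive factor, were not called, at 0.40 (adjusted p = 0.431) and 0.62 (adjusted p = 0.27). The mean of the 13 genes was 6.64, 7.80, 7.79 and 8.32 on the day 4 arrays and ranged from 6.20 to 7.18 on the non-pregnant arrays. The count was 10 without non-pregnant replicate 4 and 0 with the 10 arrays alone, where the adjusted p of Sqle was 0.0881. The sterol regulatory element TCACNCCAC, searched on both strands, occurred in 0 of the 10 list promoters with an entry and in 1.2% of those of all tested genes. Of the 6 genes that rose, 3 had an entry. At that share 10 promoters would mostly hold no match, so the search decides nothing about this element.

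**Figure D2:**
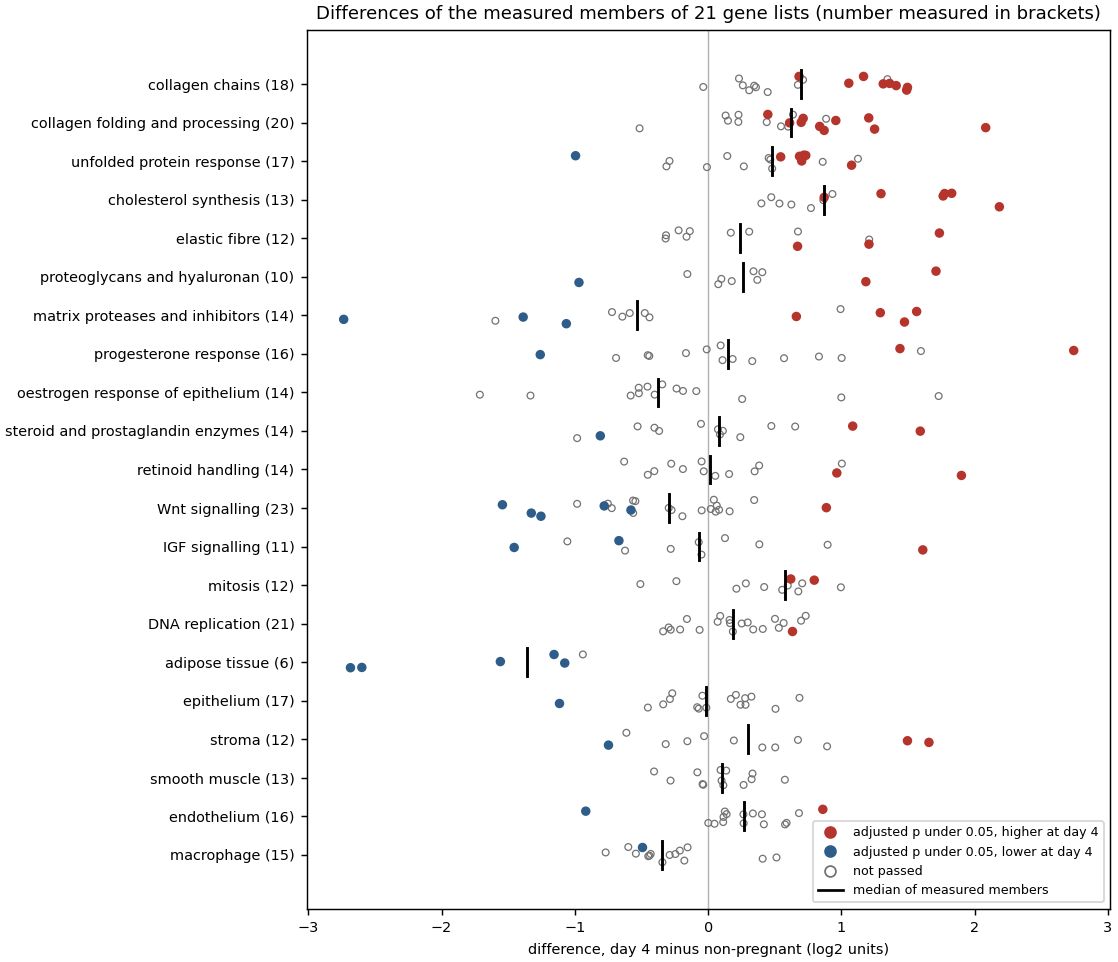
Differences (day 4 minus non-pregnant, log2 units) of the measured members of 21 gene lists; filled points passed the adjusted p (red higher, blue lower at day 4), open points did not, and black lines are medians. Collagen chains, collagen folding, protein folding in the endoplasmic reticulum and cholesterol synthesis lie mostly to the right of 0, adipose genes to the left, and epithelial and smooth muscle genes near 0, with endothelial genes mostly to the right but of a smaller median (0.27).

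The steroid hormone axis was described from its receptors to its targets. Pgr, the progesterone receptor, read 7.36, 8.13, 7.85 and 8.37 at day 4, against 5.74, 6.55 and 7.17 in non-pregnant uterus, with no overlap. Esr1, the oestrogen receptor, was at 7.96, 8.61, 8.98 and 9.20 at day 4 and 7.65, 8.49 and 9.82 in non-pregnant uterus, overlapping throughout, with a difference of 0.09 (adjusted p = 0.921). Of 16 progesterone-responsive genes 2 rose, 1 fell and the median was 0.15. Beside Pgr itself the rise was Lrp2, a multiligand endocytic receptor of epithelium, at 11.01, 9.90, 9.63 and 4.85 against 4.66, 5.66 and 8.47. Day 4 replicate 4 read as low as the non-pregnant arrays, and the difference of 2.74 (SE 0.72, adjusted p = 0.0147) did not pass without day 4 replicate 1, 2 or 3 (differences between 2.02 and 2.48). Ihh, the epithelial signal downstream of the receptor, Hand2, its stromal target, and Nr2f2, the stromal relay, had differences of 0.83 (adjusted p = 0.309), -0.17 (adjusted p = 0.789) and -0.69 (adjusted p = 0.0509).

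Oestrogen-responsive genes of the epithelium spread widely within both groups. None of 14 passed by limma (2 at an unadjusted p under 0.05), and their median was -0.37. Ltf, lactoferrin, had 10.59, 14.45, 14.54 and 14.82 on the day 4 arrays and 14.67, 14.85, 14.81, 14.90, 14.92 and 8.59 on non-pregnant replicates 1 to 6. Lcn2, lipocalin 2, followed the same pattern, at 6.95, 14.85, 14.92 and 14.99 at day 4 and 14.96, 14.38, 14.53, 14.51, 14.99 and 6.95 in non-pregnant uterus. Day 4 replicate 1 and non-pregnant replicate 6 were thus far below the rest of their groups. The mean of the 14 genes was 7.23 on day 4 replicate 1 and 11.12 to 11.68 on the other day 4 arrays, and 7.30 on non-pregnant replicate 6 and 10.51 to 11.89 on the other non-pregnant arrays. On those 2 arrays the mean of 17 epithelial genes was also the lowest of its group, 7.89 against 9.34 to 9.73 at day 4, and 8.05 against 8.70 to 9.84 in non-pregnant uterus. The same non-pregnant array held the 1 detected value of its group for Cyp26a1, a retinoic acid hydroxylase, at 8.83 against 4.38 to 4.83 on the other 5 arrays, and the highest value of the interleukin decoy receptor Il13ra2, at 7.61 against 4.30 to 4.50. Without both arrays 413 genes changed, 246 of which were among the 276, and the part of this spread in each result was not tested.

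**Figure D3:**
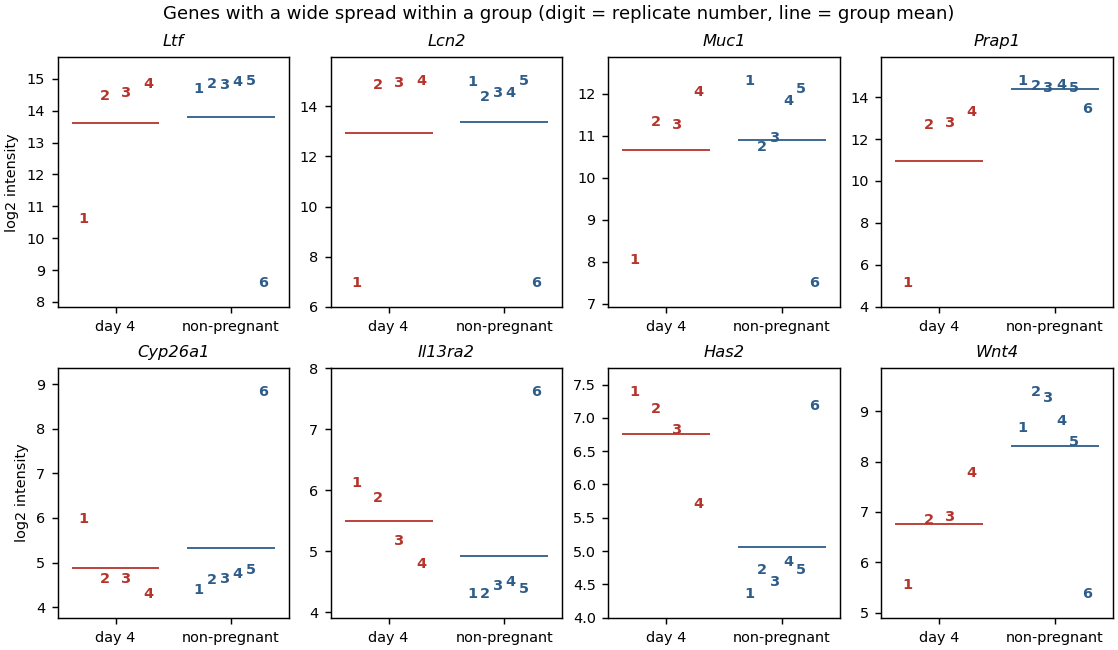
Normalised log2 intensity of 8 genes with a wide spread within a group; digits are replicate numbers and lines group means. Day 4 replicate 1 and non-pregnant replicate 6 sit far below the other arrays of their group for Ltf and Lcn2, and non-pregnant replicate 6 far above the others for Cyp26a1, Il13ra2 and Has2.

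Of 15 genes known from embryo attachment none passed by limma, where 8.97% of all genes did. Lists this short can hold no call at that share. At an unadjusted p under 0.05 there were 7, against 2368 of all 10412 genes, and the median of the 15 was 0.22. Lif, the cytokine required for implantation, was at 5.97, 5.95, 6.08 and 6.36 at day 4 and at 4.65, 5.26 and 6.95 in non-pregnant uterus, and the difference of 0.56 (adjusted p = 0.214) lay within the spread of the non-pregnant arrays. Hbegf, the growth factor made at the attachment site, was at 6.14, 6.37, 6.42 and 6.92, against 5.95, 6.96 and 8.17, with a difference of -0.54 (adjusted p = 0.156). Msx1, a homeobox factor of the receptive uterus, was at -0.26 (adjusted p = 0.687), and Hdc, the histamine-forming enzyme, at 0.33 (adjusted p = 0.745). Bmp2, a decidual morphogen, and Prl8a2, a decidual prolactin, were detected on no array of either group. Of 13 decidual genes 1 rose and 2 fell. Wnt4, a Wnt ligand that promotes decidualization, was lower, at 5.55, 6.85, 6.90 and 7.78 at day 4 against 5.38, 8.73 and 9.38, but non-pregnant replicate 6 held the lowest of all 10 values and the difference of -1.54 (SE 0.46, adjusted p = 0.0306) did not pass without day 4 replicate 1, 2 or 3 or non-pregnant replicate 1, 2, 3 or 5 (differences between -1.14 and -1.59). The rise was Sct, the hormone secretin, detected on 3 of 4 day 4 arrays at 7.28, 6.16, 6.49 and 4.40 and on 1 of 6 non-pregnant arrays, and its difference of 1.29 (SE 0.34, adjusted p = 0.0157) did not pass without day 4 replicate 1, 2 or 3 (differences between 0.89 and 1.26).

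Among enzymes of steroid and prostaglandin metabolism 2 of 14 rose and 1 fell. Hsd11b2, which inactivates glucocorticoids, was at 10.40, 10.86, 10.75 and 10.68 at day 4 and 7.09, 9.16 and 11.52 in non-pregnant uterus, where the dim replicate 4 held the highest value. Its difference was 1.59 (SE 0.45, adjusted p = 0.0243) and did not pass without day 4 replicate 2, 3 or 4 or non-pregnant replicate 1 or 5 (differences between 1.19 and 1.59). Hsd17b7, an enzyme with both a sterol and an oestrogen-forming activity, had 7.38, 9.10, 8.95 and 9.34 at day 4 and 7.05, 7.75 and 8.09 in non-pregnant uterus, and rose by 1.08 (SE 0.25, adjusted p = 0.00668). Hsd17b1, which forms oestradiol from oestrone, was detected on no day 4 array and on 4 of 6 non-pregnant arrays, and was lower at day 4 by at least 1.49-fold (adjusted p = 0.0127). Of 14 retinoid genes 2 rose. Aldh1a2, the retinaldehyde dehydrogenase of stroma, was at 7.65, 9.38, 9.72 and 9.51 at day 4, against 5.89, 6.94 and 8.64. Day 4 replicate 1 alone fell within the non-pregnant range, and the difference was 1.90 (SE 0.38, adjusted p = 0.00164).

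In Wnt signalling 1 of 23 measured members rose and 5 fell, with a median of -0.30. The rise was Wnt5a, a stromal ligand of the pathway's branch without beta-catenin, at 10.86, 11.70, 11.52 and 11.42 at day 4 and 9.99, 10.41 and 11.12 in non-pregnant uterus, higher by 0.89 (SE 0.20, adjusted p = 0.00406). Rspo3, a secreted amplifier of Wnt receptors, was at 9.94, 8.74, 8.77 and 8.80 at day 4, against 9.30, 10.36 and 10.94, and fell by 1.25 (SE 0.24, adjusted p = 0.000966). It was the only fall of this list that stayed called when any 1 array was left out, among the 4 examined so. Axin2, a common readout of beta-catenin signalling, differed by 0.02 (adjusted p = 0.982). The count of 5 falls was 1 without day 4 replicate 1, day 4 replicate 2 or non-pregnant replicate 1, 2 without non-pregnant replicate 2, 3 or 5, 3 without day 4 replicate 3, day 4 replicate 4 or non-pregnant replicate 6, and 8 without non-pregnant replicate 4.

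Of 11 IGF signalling genes 1 rose and 2 fell, with a median of -0.07 that was 0.18 under median scaling. Igf1, the stromal growth factor that relays oestrogen to the epithelium, was at 11.65, 11.61, 11.46 and 11.61 on the day 4 arrays and at 8.44, 10.00 and 11.65 on the non-pregnant arrays. Non-pregnant replicate 6 read the same as the highest day 4 array, and the difference was 1.61 (SE 0.33, adjusted p = 0.00218). Irs2, an adaptor of the insulin and IGF receptors, was at 7.53, 6.96, 6.90 and 6.62 at day 4, against 7.41, 8.54 and 9.14, and fell by 1.46 (SE 0.26, adjusted p = 0.000504). Igf2r, the receptor that clears IGF2, was at 8.70, 8.31, 8.39 and 8.55 at day 4, below all non-pregnant arrays at 8.89, 9.05 and 9.54. It fell by 0.67 (SE 0.17, adjusted p = 0.0112) and did not pass without day 4 replicate 2 (difference -0.61). Hhip, a decoy receptor and target of hedgehog signalling, was detected on all 4 day 4 arrays, at 5.90, 5.97, 6.01 and 5.33, and on none of the non-pregnant arrays. It was higher at day 4 by at least 1.47-fold (adjusted p = 0.000111), the only call among 13 hedgehog and Notch genes.

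Of 17 chemokines 2 rose and 1 fell, with a median of -0.01. Ccl7, an attractant of monocytes, was at 8.03, 8.25, 8.23 and 7.94 at day 4 and at 4.64, 5.51 and 7.85 in non-pregnant uterus, with no overlap but with non-pregnant replicate 1 close to the day 4 values. Ccl11, the eosinophil attractant eotaxin, was at 8.12, 11.56, 11.62 and 11.20, against 6.82, 8.04 and 10.77, and day 4 replicate 1 lay among the lower non-pregnant values. Its difference of 1.94 (SE 0.60, adjusted p = 0.0398) did not pass without day 4 replicate 2, 3 or 4 or non-pregnant replicate 2, 3, 4 or 6 (differences between 1.57 and 1.84). The fall was Cxcl14, a chemokine of epithelia, at 7.80, 8.56, 8.45 and 9.09 at day 4 and 7.80, 9.64 and 11.29 in non-pregnant uterus, and its difference of -1.26 (SE 0.40, adjusted p = 0.044) did not pass without day 4 replicate 1, 2 or 3 or non-pregnant replicate 1, 2, 3 or 5 (differences between -0.95 and -1.29). Among leukocyte lists, 1 of 15 macrophage genes fell, none rose and 2 lay above 0, while 1 of 10 MHC class II genes fell and none lay above 0, with a median of -0.51. H2-DMb1, a class II peptide loader, was at 7.88, 7.56, 7.56 and 7.10 at day 4 and 8.12, 8.33 and 8.47 in non-pregnant uterus, without overlap. The dim non-pregnant replicate 4 had the lowest mean of its group on both lists, 7.71 against 8.96 to 9.75 for macrophages and 7.39 against 8.80 to 9.05 for MHC class II. Without the dim arrays of the series, non-pregnant replicate 4 and day 6 replicate 4, 10 macrophage genes and 7 MHC class II genes fell, in a fit in which 2087 of all genes passed (20%). Without non-pregnant replicate 4 alone, 3 macrophage genes and 2 MHC class II genes fell, where 14.9% of all genes passed. Of 16 interferon response genes none passed by limma (1 at an unadjusted p under 0.05).

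Markers of the tissue layers are to be read against the 4.45% of all genes that were higher and the 4.52% lower. Calls in the epithelial, endothelial and smooth muscle lists were near those shares, and stromal calls went both ways. Of 12 stromal genes 2 rose and 1 fell, with a median of 0.30 that was -0.02 without both dim arrays. Beside Col15a1 the rise was Mme, the membrane peptidase CD10, with 9.84, 9.09, 9.14 and 6.67 at day 4 and 5.85, 6.93 and 8.73 in non-pregnant uterus. Its difference of 1.66 (SE 0.44, adjusted p = 0.0172) did not pass without day 4 replicate 1, 2 or 3 (differences between 1.27 and 1.52), and its other probe gave 0.62 (adjusted p = 0.0648). Pdgfrb, a receptor of platelet-derived growth factor, fell by 0.75 (SE 0.22, adjusted p = 0.0315), a call not held without day 4 replicate 2, 3 or 4 or non-pregnant replicate 1, 2 or 5 (differences between -0.59 and -0.79). Of 17 epithelial genes 1 fell, the tight junction gene Cldn4, at 8.87, 9.04, 8.83 and 9.20 at day 4 against 9.32, 9.70 and 11.27 with no overlap. Its difference of -1.12 (SE 0.32, adjusted p = 0.0244) did not pass without day 4 replicate 2 or 3 or non-pregnant replicate 1 or 5 (differences between -0.88 and -1.13). None of 13 smooth muscle genes passed by limma (1 at an unadjusted p under 0.05). Of 16 endothelial genes 15 lay above 0, with a median of 0.27, while 1 rose and 1 fell. Plvap, a protein of fenestrated endothelium, rose by 0.86 (SE 0.14, adjusted p = 0.00021) without overlap, while the tight junction gene Cldn5 fell by 0.92 (SE 0.23, adjusted p = 0.0127), a call not held without day 4 replicate 2 or 4 (differences between -0.75 and -0.81). Adipose genes, which mark another tissue, were lower at day 4 in 5 of 6 measured members, with a mean of 6.19 to 7.79 on the day 4 arrays and 7.07 to 10.18 on the non-pregnant arrays. The defining markers Adipoq and Car3 were each detected on 3 of 4 day 4 arrays and on 6 of 6 non-pregnant arrays. The adipose count was 1 without day 4 replicate 1, day 4 replicate 2, day 4 replicate 3, non-pregnant replicate 3 or non-pregnant replicate 6, 2 without non-pregnant replicate 1, and 0 under median scaling, where the list's median was -1.30, against -1.36 in the fit reported. Plin4, a lipid droplet protein, was the member that passed without any 1 array, at -1.16 (SE 0.22, adjusted p = 0.00094). The part of fat in any other difference was not tested.

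Proliferation genes stood above 0 without being called for the most part. Of 12 mitosis genes 2 rose and 10 had a positive difference, with a median of 0.58. The count was 0 without day 4 replicate 1, day 4 replicate 2, non-pregnant replicate 1 or non-pregnant replicate 5, 1 without day 4 replicate 3, 4 without day 4 replicate 4, 5 without non-pregnant replicate 3 and 6 without non-pregnant replicate 6. Kif11, a spindle motor, had 6.81, 5.96, 5.97 and 5.31 at day 4 and 4.40, 5.26 and 6.01 in non-pregnant uterus, so the groups overlapped, and the difference of 0.80 (SE 0.24, adjusted p = 0.0311) did not pass without day 4 replicate 1, 2 or 3 or non-pregnant replicate 1, 4 or 5 (differences between 0.53 and 0.81). Of 21 DNA replication genes, Mcm4, a helicase subunit, was the 1 that rose, by 0.63 (SE 0.20, adjusted p = 0.0451), and it did not pass without day 4 replicate 1, 2, 3 or 4 or non-pregnant replicate 1 or 5 (differences between 0.46 and 0.66).

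In the fit of the 10 arrays alone the 8 genes that changed were Calr, 3 other rises and 4 falls. Itga6, the laminin-binding integrin chain alpha 6, was at 6.75, 7.12, 7.15 and 7.32 on the day 4 arrays and 5.76, 5.82 and 6.32 on the non-pregnant arrays. The difference was 1.16 (SE 0.15, adjusted p = 2.27e-05) and its adjusted p was 0.0339 with the 10 arrays alone, but the 2 other probes of Itga6 gave 0.13 (adjusted p = 0.736) and 0.44 (adjusted p = 0.416). Tnfrsf22, a decoy receptor of the TNF family, rose by 1.38 (SE 0.21, adjusted p = 9.75e-05), where the other probe gave 0.36 (adjusted p = 0.533). Jpt2, a microtubule-associated protein, rose by 1.15 (SE 0.20, adjusted p = 0.000454). Camk2b, a calcium/calmodulin-dependent kinase subunit, was at 5.11, 5.08, 4.65 and 5.01 at day 4, with detection on 1 of 4 arrays, against 6.26, 6.41 and 7.02, detected on all 6. It fell by 1.52 (SE 0.24, adjusted p = 0.000188) and passed under every alternative run. Rcan2, an inhibitor of calcineurin, was at 6.14, 5.69, 5.69 and 4.96, against 6.69, 7.50 and 7.80, and fell by 1.79 (SE 0.22, adjusted p = 1.12e-05), also under every alternative. Rgs1, a regulator of G protein signalling in leukocytes, fell by 1.38 (SE 0.23, adjusted p = 0.00021) and the histone deacetylase Hdac11 fell by 1.01 (SE 0.15, adjusted p = 0.000111), and these and Jpt2 did not pass under median scaling.

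The 12 largest rises and the 12 largest falls without overlap included further genes of varied function. Ngfr, the low-affinity neurotrophin receptor, was at 9.71, 10.89, 11.11 and 11.10 at day 4 and at 8.25, 8.73 and 9.30 in non-pregnant uterus, and rose by 1.92 (SE 0.23, adjusted p = 1.12e-05). Aldh1l2, a mitochondrial folate enzyme, was at 9.02, 8.21, 8.34 and 8.15 at day 4 and at 5.64, 6.48 and 7.65 in non-pregnant uterus, and rose by 1.88 (SE 0.26, adjusted p = 4.52e-05). Dnmt3l, a cofactor of DNA methyltransferases known from the germ line, was at 7.45, 7.33, 7.41 and 7.39, against 5.18, 5.85 and 6.90, and rose by 1.48 (SE 0.22, adjusted p = 0.000108). Clec11a, a secreted growth factor of bone and blood-forming tissue, rose by 1.46 (SE 0.36, adjusted p = 0.0104). For Nf1, an inhibitor of Ras signalling, the brightest probe rose by 1.52 (SE 0.22, adjusted p = 7.97e-05), but the other probe gave -0.05. Among the falls, Inmt, an N-methyltransferase of indoleamines, averaged 11.19 ± 0.34 at day 4 and 13.22 ± 0.72 in non-pregnant uterus (SD, n = 4 and 6), and fell by 2.03 (SE 0.32, adjusted p = 0.000156), with its other probe at -2.51. C2cd4a, a nuclear factor of endothelial and islet cells, fell by 2.07 (SE 0.48, adjusted p = 0.00562), but its other probe gave 0.59 (adjusted p = 0.741). Apoc1, an apolipoprotein, was at 4.51, 5.53, 5.62 and 5.95 at day 4, against 6.05, 6.80 and 8.40 in non-pregnant uterus (adjusted p = 0.00972). Gadd45b, a stress-induced growth arrest gene, was at 5.86, 6.34, 6.16 and 6.24 at day 4, against 6.65, 7.95 and 8.42, with a difference of -1.63 (SE 0.25, adjusted p = 0.000149). Cdo1, the cysteine dioxygenase that leads to taurine, fell by 1.56 (SE 0.24, adjusted p = 0.000108), and Nceh1, a cholesteryl ester hydrolase, fell by 1.44 (SE 0.19, adjusted p = 1.55e-05). Atg9b, a membrane protein of autophagy, and Neto2, an auxiliary subunit of glutamate receptors, had differences of -1.98 (SE 0.38, adjusted p = 0.00103) and -1.79 (SE 0.36, adjusted p = 0.00154), and the other probe of Neto2 gave -0.87 (adjusted p = 0.0708). The gene ccdc198 was detected on no day 4 array and on 5 of 6 non-pregnant arrays, and was lower at day 4 by at least 2.02-fold (adjusted p = 0.000453).

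The contrast of day 6 with day 4 asked whether these levels moved again by the next time point, with 2672 of 10412 genes passing (25.7%). It shares the day 4 arrays with the comparison above. Itga6 averaged 5.66 at day 6 and 7.08 at day 4, a day 6 minus day 4 difference of -1.42 (SE 0.15, adjusted p = 1.87e-08). Hhip was detected on 0 of 6 day 6 arrays, against all 4 day 4 arrays, and was lower at day 6 by at least 1.39-fold (adjusted p = 3.41e-07). The neurotrophin receptor Ngfr, which had no overlap between day 4 and non-pregnant arrays, differed by -2.19 (SE 0.23, adjusted p = 1.05e-08) and Ccl7 by -2.62 (SE 0.39, adjusted p = 5.66e-06), so all 4 were lower at day 6. Wnt4 and Prap1, a secreted protein of the epithelium, were higher at day 6 than at day 4, by 3.31 (SE 0.46, adjusted p = 1.32e-06) and 3.10 (SE 0.83, adjusted p = 0.00545). The value of Prap1 rested on day 4 replicate 1, and without it the gene averaged 14.07 at day 6 and 12.91 at day 4, a difference of 1.15 (SE 0.30, adjusted p = 0.00383). In contrast Sqle, Fdps, Col1a1, Crtap and Fkbp11 did not pass between the days, with differences of -0.29, 0.05, -0.03, -0.17 and -0.01, and P3h1 and Timp1 were higher again at day 6, by 1.19 (SE 0.16, adjusted p = 6.08e-07) and 0.63 (SE 0.18, adjusted p = 0.0101). Without day 4 replicate 1, Sqle was lower at day 6 by a difference of -0.84 (adjusted p = 0.00644), and without day 4 replicate 4 Timp1 did not pass (0.54, adjusted p = 0.0545).

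**Figure D4:**
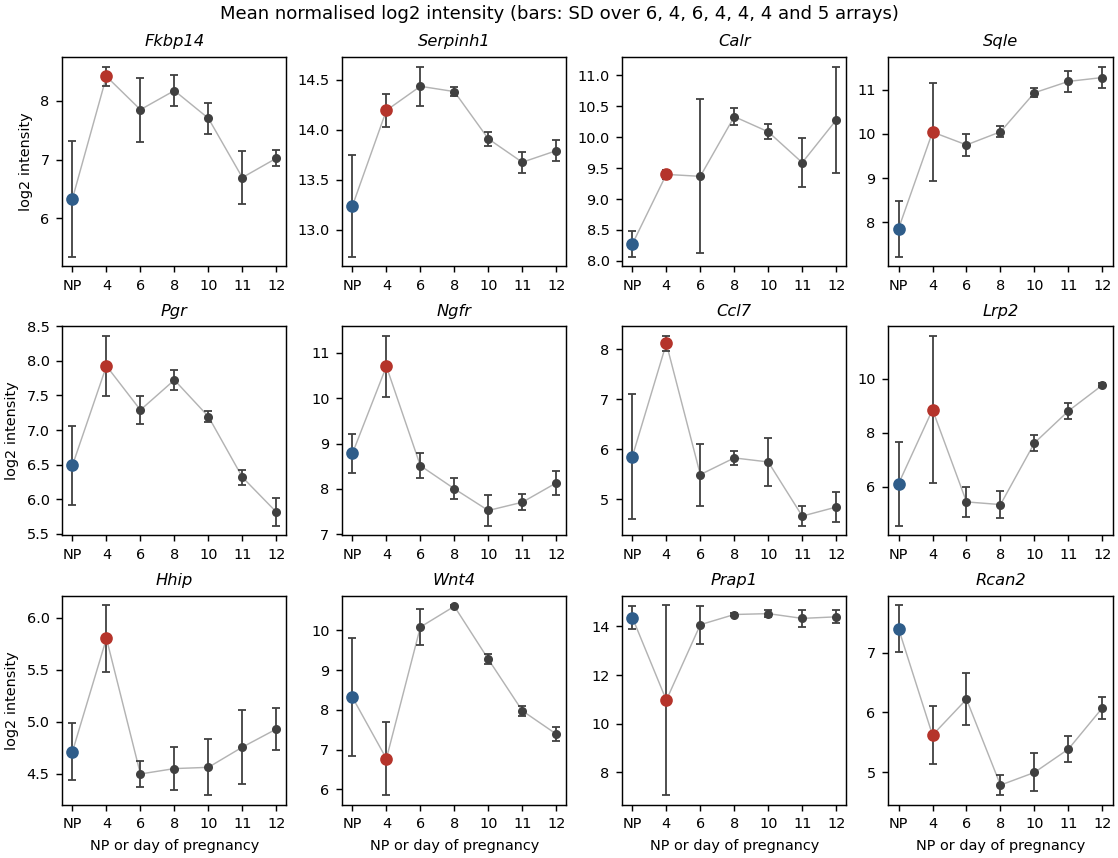
Mean normalised log2 intensity of 12 genes in non-pregnant uterus (NP) and at days 4, 6, 8, 10, 11 and 12; bars are SDs over the arrays of a group, red marks day 4 and blue non-pregnant uterus. Ngfr, Ccl7 and Hhip peak at day 4, Wnt4 and Prap1 are lowest at day 4, and Fkbp14, Serpinh1, Calr and Sqle stay above the non-pregnant mean at day 6.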

How the data were processed

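Total RNA of uterine tissue was measured on 33 single-colour Illumina bead arrays, of which 4 at day 4 and 6 of non-pregnant uterus are compared here. The table of intensities deposited by the authors holds a linear intensity per probe, read as such from its range, and beside it a deposited detection p-value. The second deposited table holds log2 values, which share the same distribution on every array and served as an alternative. The scanner software, the authors' normalization program and a genome build are not given in the sources used here. Per the labels' protocols, RNA was extracted with Trizol, treated with DNase I and labelled with biotin.

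From the deposited intensity and detection p-value of each probe, limma's nec (offset 16) estimated and removed background, after which the arrays were quantile normalized on the log2 scale. Probes with detection p under 0.01 on at least 4 arrays were kept, and the brightest named probe stood for a gene, which gave 10412 genes from 15195 probes (3490 genes had several). With limma 3.58.1, the 33 arrays were fitted together, each group having its own mean (R 4.3.3), with Benjamini-Hochberg adjustment over the 10412 genes (26 residual and 4.43 prior degrees of freedom). For a gene detected nowhere in 1 group, that group's values were set no lower than the lowest detected signal of their array, and the fold is a bound. Plotting used Python 3.11.15, pandas 2.3.3 and matplotlib 3.10.9.

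Members and gene lists were chosen with earlier results of these data known. Named genes are the 12 largest rises and the 12 largest falls that changed without overlap, the genes that changed with the 10 arrays alone, up to 5 members of each described list by p, landmark genes of implantation, and members named as not passing, chosen after their values were seen. Of 35 landmark genes, Areg, Ereg, Calca, Ptgs1, Ptgs2, Foxa2, C3, Alox15 and Mki67 were not analysed here. Tested on simulated data that kept each gene's residual spread, the fit passed 79 of 100 genes set 2-fold apart and 99 of 100 set 4-fold apart, and 9 of 10212 unchanged genes. The simulated arrays were independent and every group had the same spread. Unequal spread between groups and near-identical arrays were thus left out, and these rates may not hold for the real arrays. The detected probes per array (13097 to 18152) and the number of arrays limit precision.

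Replicate numbers are those of the intensity table, and for 16 of the 33 arrays the other table numbers them differently within the same group. Day 4 and non-pregnant arrays of the same number deviated together with correlations of -0.35, -0.10, -0.10 and 0.43 across genes. Only for day 4 replicate 4 was the non-pregnant array of the same number the closest match. The titles state no pairing, and so few correlations cannot exclude one or a shared batch. Alternatives were median scaling, cyclic loess, omission of the background step, the deposited log2 values, other filters, another probe rule, the 10 arrays alone, array weights, other variance models, the replicate block, other fold minima, averaged or omitted arrays and each array left out. Leaving out each day 4 array for day 6 against day 4 was chosen after seeing the data. A block for slide was not run, because no source gives the slide. Promoter sequences are RefSeq's for GRCm38.p6, and 8399 of the 10412 genes had an entry.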

Additional observations from a re-analysis of the deposited data

Results flagged for a closer look

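For each named gene, the array that stood farthest from the rest of its group was examined by Dixon's ratio of its gap to the group's range. Of 246 groups of arrays (123 genes), 37 exceeded the 95% critical value (15%), where chance gives about 1 in 20. Because day 4 replicates 2 and 3, and non-pregnant replicates 2 and 3, nearly coincide, the ratio is easier to exceed in these groups.

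Day 4 replicate 1 was lower than the other 3 day 4 arrays for Adamts4 at 7.41 against 8.10 to 8.24, Aldh1a2 at 7.65 against 9.38 to 9.72 and C2cd4a at 5.59 against 8.55 to 8.77. Also far from the others were Ccl11 at 8.12 against 11.20 to 11.62, Crabp1 at 5.17 against 5.90 to 5.94 and Fbln2 at 10.26 against 12.38 to 12.48. The list went on with Lcn2 at 6.95 against 14.85 to 14.99, Ltf at 10.59 against 14.45 to 14.82 and Nf1 at 5.45 against 6.76 to 6.97. Further such values were Ngfr at 9.71 against 10.89 to 11.11, Prap1 at 5.13 against 12.69 to 13.28 and Sqle at 8.39 against 10.44 to 10.81.

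The same array was higher than the others for Nr2f2 at 8.67 against 7.83 to 7.88 and Rspo3 at 9.94 against 8.74 to 8.80. Day 4 replicate 4 was lower than the rest for Hhip at 5.33 against 5.90 to 6.01 and Vcan at 5.77 against 6.62 to 6.72. It was higher for Dbp at 11.38 against 11.20 to 11.21 and Plin4 at 8.91 against 7.92 to 8.08.

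Non-pregnant replicate 6 was higher than the other 5 non-pregnant arrays for Cldn5 at 10.16 against 8.93 to 9.31, Cyp26a1 at 8.83 against 4.38 to 4.83 and Has2 at 7.18 against 4.36 to 4.83. Also far from the others were Il13ra2 at 7.61 against 4.30 to 4.50, Sct at 6.14 against 4.34 to 4.60 and Ttr at 5.76 against 4.38 to 4.83. On this array the lower values were Lcn2 at 6.95 against 14.38 to 14.99, Ltf at 8.59 against 14.67 to 14.92 and Muc1 at 7.49 against 10.73 to 12.30. Also far from the others were Prap1 at 13.44 against 14.44 to 14.75 and Wnt4 at 5.38 against 8.39 to 9.38.

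The dim non-pregnant replicate 4 was higher than its group for Dnajc3 at 9.47 against 8.17 to 8.57, Greb1 at 11.07 against 7.80 to 8.73 and Lss at 6.70 against 5.54 to 5.95. Also far from the others were Msmo1 at 9.23 against 6.81 to 7.66 and Prl8a2 at 5.80 against 4.57 to 4.79. It was lower for Laptm5 at 12.45 against 12.74 to 12.89 and Wnt2 at 4.32 against 5.35 to 5.77. Non-pregnant replicate 1 was higher for Camk2b at 7.02 against 6.26 to 6.48.

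All of these are log2 intensities. Prl8a2 was detected on none of the 10 arrays, so its value is background. Sqle, Fbln2, Aldh1a2 and Ngfr, which rose at day 4, were thus lower on day 4 replicate 1 than on the other day 4 arrays, and each kept its call without that array.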

How the results depend on the processing

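Of the 276 genes that changed, the count was 109 without background correction, 106 with the authors' log2 values, 176 under median scaling, 173 with near-identical arrays averaged, 8 with the 10 arrays alone, 649 when arrays were weighted and 439 with the 2 dim arrays omitted. It was 722 with a 1.5-fold minimum and 934 with no fold minimum. Leaving out 1 array at a time gave 189 (without day 4 replicate 2) to 422 (without non-pregnant replicate 4). The replicate block gave 323, although the titles do not state that the numbers pair the samples. Of the 276, 138 also changed in the same direction under median scaling, 264 under cyclic loess, 102 with the authors' log2 values, 155 with near-identical arrays averaged and 7 with the 10 arrays alone. Of 101 named genes that passed, 50 still passed under median scaling, 90 without background correction, 69 with near-identical arrays averaged, 97 with the replicate block and 7 with the 10 arrays alone, and no named gene that passed in either fit turned its sign. The cause of these shifts was not tested. With the offset and floor used, levels near 5 log2 units are at background, so small differences of dim genes such as Hoxa10, Hand2 and Bmp2 were not detectable here.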

Other observations

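In some further gene groups 1 to 3 members passed, to be read against the 4.45% of all genes that were higher and the 4.52% lower. Calls in the transport list and in the immediate early and heat shock list were near those shares. Of 12 clock genes 1 fell and 2 lay above 0, with a median of -0.38 (between -0.36 and -0.23 under the other scalings). Dbp, an output factor of the clock, was at 11.20, 11.21, 11.20 and 11.38 on the day 4 arrays and at 10.79, 12.21 and 13.31 on the non-pregnant arrays. Its difference of -1.00 (SE 0.28, adjusted p = 0.0229) did not pass without day 4 replicate 2 or 3 or non-pregnant replicate 1 or 5 (differences between -0.78 and -0.98), and the labels give no time of day. Of 17 ion and water transport genes Aqp8, a water channel, was the 1 that rose, at 5.19, 7.37, 7.22 and 7.72 at day 4 and 4.43, 4.75 and 7.05 in non-pregnant uterus. Day 4 replicate 1 and non-pregnant replicate 4 each lay among the other group, and the difference of 1.54 (SE 0.48, adjusted p = 0.0393) did not pass without day 4 replicate 2, 3 or 4 or non-pregnant replicate 1, 2, 3 or 5 (differences between 1.26 and 1.43). Among 18 immediate early and heat shock genes, Myc rose by 0.77 (SE 0.23, adjusted p = 0.0296), not held without day 4 replicate 1 or 3 or non-pregnant replicate 1 or 5 (differences between 0.54 and 0.74), and the phosphatase gene Dusp1 fell by 0.50 (SE 0.15, adjusted p = 0.0306), not held without day 4 replicate 1, 2 or 4 or non-pregnant replicate 1 or 5 (differences between -0.42 and -0.54). Of 10 gland products 1 rose and 1 fell. The rise was Ttr, the carrier of thyroid hormone and retinol, at 7.76, 6.95, 6.94 and 4.61 at day 4 and 4.38, 4.66 and 5.76 in non-pregnant uterus, where day 4 replicate 4 was not apart from the non-pregnant arrays, and the difference was 1.78 (SE 0.36, adjusted p = 0.00189). The fall was Prap1, at 5.13, 12.69, 12.77 and 13.28 at day 4, against 13.44, 14.48 and 14.75. Of 6 granulocyte genes 1 rose and 2 fell. Mpo, myeloperoxidase, rose by 0.96 (SE 0.23, adjusted p = 0.00841), with detection on all 4 day 4 arrays and on 1 of 6 non-pregnant arrays. Mpo did not pass without background correction, with the authors' log2 values or with the 10 arrays alone. In contrast Csf3r, the receptor of the granulocyte growth factor G-CSF, was detected on no day 4 array. It was lower by a bound of 1.43-fold or more, with an adjusted p of 0.0114, not held without day 4 replicate 2 (difference -0.89). Prg2, the major basic protein of eosinophils, fell by 0.77 (SE 0.20, adjusted p = 0.013) with no overlap, and did not pass without day 4 replicate 4 (difference -0.56).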
